A study of Homo sapiens with 2 samples.

Results

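The machinery that licenses replication origins and drives replication forks was followed through 42 genes, taken by symbol from a fixed list, of the 31845 genes in the deposited expression table. The list names genes by function, and it was chosen with earlier results of these data known. It covers 10 complexes or steps, from origin recognition to ligation, and every one of the 42 genes was in the table. RNA sequencing measured total RNA in 2 libraries, 1 of an olaparib-resistant derivative of Capan-1 and 1 of parental Capan-1, so each group is a single library with no replicate. Capan-1, an established human line from a pancreatic adenocarcinoma, carries mutant BRCA2. The resistant cells had been taken stepwise through olaparib, from 15 nM up to 128 uM, and the parental cells are labelled as the control. Olaparib blocks PARP enzymes, on which cells without homologous recombination depend. Whether olaparib was present when the resistant cells were harvested, and whether they derive from a single clone, is not given in the sources used here.

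Origins are licensed in G1 phase. The origin recognition complex, with CDC6 and CDT1, loads the MCM2-7 ring onto DNA, where it stays inactive until S phase. The kinases CDC7-DBF4 and CDK then convert it to the CMG helicase by adding CDC45 and GINS, and polymerases alpha, delta and epsilon copy both strands with the help of the PCNA clamp, its loader RFC and the single-strand binder RPA. Many of these genes are textbook targets of E2F factors and are transcribed around the G1/S boundary.

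The 2 libraries were of nearly equal depth, with 34507480 counts from resistant and 34572931 from parental cells. The columns taken as resistant carry a heading that the labels do not spell out, and they were assigned because they were the remaining library of the 2. Every direction given here rests on that assignment. BRCA2, the gene in the series title, had 7585 counts in resistant cells and 1381 in parental cells, a 5.53-fold difference. In the labels the cell type is entered as breast cancer, against the pancreatic origin of the line. Summed counts of 5 epithelial markers were 168925 in resistant and 112400 in parental cells, and those of 4 pancreatic duct markers 26134 in resistant and 29593 in parental cells. KRT7 carried that sum, with 20455 counts in resistant and 14193 in parental cells, while the other duct markers were lower in resistant cells, MUC1 at a log2 ratio of -1.34, CFTR at -1.79 and SOX9 at -0.74. Their part in the results below was not tested. Among the mammary luminal markers, ESR1 (18 counts in resistant, 8 in parental cells) and PGR (1 count in resistant, 4 in parental cells) were close to 0, while GATA3 had 486 counts in resistant cells and 1884 in parental cells. Leukocyte markers summed to 26 counts in resistant and 24 in parental cells, and the 3 fibroblast markers in the table to 49 counts in resistant and 98 in parental cells.

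Replication genes stood a little higher in the resistant library almost throughout. Of the 42 genes, 40 had a log2 ratio of resistant over parental above 0 (95.2%), against 51.2% of the 15102 genes with at least 50 counts in the higher library. The 2 below 0 were POLD3, a polymerase delta subunit, and RPA3, the smallest RPA subunit, and RPA3 turned to above 0 under upper quartile scaling (0.04) and in the ratio of the FPKM values (0.02). The median log2 ratio of the 42 genes was 0.41, or 1.33-fold, against 0.06 for all genes at that minimum and 0.09 for the protein-coding genes among them. All 42 genes reached the minimum of 50 counts. Together they held 157576 counts in the resistant library, or 0.457% of its counts, and 120259 counts, or 0.348%, in the parental library.

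The differences were small one by one. Higher by 25% or more in resistant cells were 28 of the 42 genes, beside 34.4% of all genes, and 1 gene was lower by that fold, beside 34.7% of all genes. At 1.5-fold, 11 genes (26.2%) were higher, beside 16.8% of all genes, and 1, POLD3, was lower, beside 21.2% of all genes. No gene reached 2-fold in either direction, while 6% of all genes did so upwards and 8.95% downwards. With the trend of the ratio with expression level removed, 10 of the 42 genes (23.8%) were higher at 1.5-fold, near the all-gene share of 21.4%, and 0 were lower, beside 17.0% of all genes. The share past 1.5-fold therefore says little about these genes. The spread was narrow, with a standard deviation of 0.28 over the 42 log2 ratios, against 0.90 over all genes. However, 24 of the 42 genes were among the 3776 genes of highest expression level, and spread was not compared at like level. The exact 95% counting interval of the ratio lay above 1 for 40 genes and below 1 for POLD3. Of the 15102 genes at the minimum it lay above 1 for 6596 and below 1 for 6223, so an interval without 1 was common. These intervals cover counting error only, not the variation between cultures, and with 1 library a group no test between the lines was possible. In bulk RNA, a larger share of cells in S phase and more of each transcript per cell cannot be told apart.

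**Figure D1:**
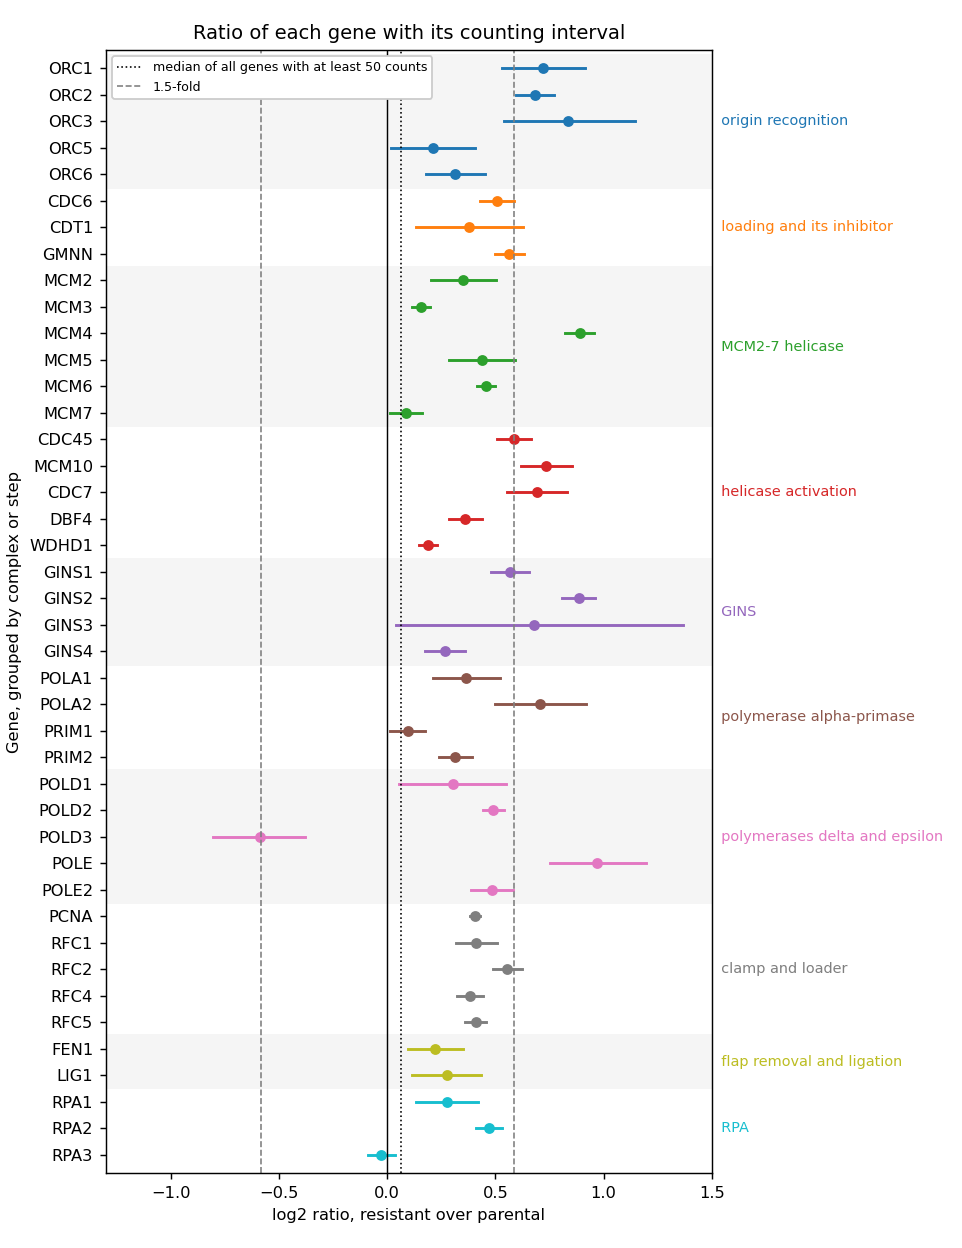
The log2 ratio of resistant over parental (horizontal axis) of each of the 42 genes, grouped by complex, with bars for the exact 95% counting interval; the dotted line is the median of all genes with at least 50 counts and the dashed lines mark 1.5-fold. Points lie to the right of 0 for 40 genes, from MCM7 at 0.09 to POLE at 0.97, while RPA3 sits at -0.03 and POLD3 at -0.59.

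The promoters of these genes were searched for a fixed set of letters, and 4 promoters are shown. RefSeq promoters on GRCh38.p14, from 250 bases before to 50 bases after the start of the gene, matched 36 of the 42 genes. They were searched on both strands for the E2F-type letters TTTCCCGC, TTTGGCGC, TTTCGCGC and TTTGCCGC. At least 1 match was found in 16 of the 36 promoters (44.4%), against 3.31% of 35116 promoters of that length and 5.45% of the 9729 promoters of protein-coding genes at the count minimum. Matches of opposite strands overlapped in MCM2 and MCM6. The G2/M element called CHR, TTTGAA on either strand, was in 1 of the 36 promoters (2.78%), that of DBF4, against 15.2% of the 35116 promoters. For this element the share among protein-coding genes at the count minimum was not taken.

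The 4 sequences below are those of POLE and GINS2, high in the order of ratios, of MCM6, with the most matches, and of MCM7, which had 2 matches and a ratio near 1. They read 5′ to 3′ on the minus strand of each chromosome, POLE at chr12:132687293-132687592, GINS2 at chr16:85688905-85689204, MCM6 at chr2:135876394-135876693 and MCM7 at chr7:100101348-100101647, and capitals mark the E2F-type matches.
POLE: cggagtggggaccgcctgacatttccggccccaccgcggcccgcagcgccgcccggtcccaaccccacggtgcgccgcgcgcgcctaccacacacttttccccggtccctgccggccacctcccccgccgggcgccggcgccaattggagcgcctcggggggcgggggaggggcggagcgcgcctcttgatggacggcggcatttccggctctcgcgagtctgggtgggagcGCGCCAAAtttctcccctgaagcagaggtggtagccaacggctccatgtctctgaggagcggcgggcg
GINS2: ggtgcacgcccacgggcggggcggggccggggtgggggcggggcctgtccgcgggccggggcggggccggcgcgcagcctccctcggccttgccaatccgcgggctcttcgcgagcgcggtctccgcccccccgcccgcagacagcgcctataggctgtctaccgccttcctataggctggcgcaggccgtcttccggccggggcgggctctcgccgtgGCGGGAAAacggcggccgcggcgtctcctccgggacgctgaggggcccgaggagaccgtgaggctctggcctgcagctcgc
MCM6: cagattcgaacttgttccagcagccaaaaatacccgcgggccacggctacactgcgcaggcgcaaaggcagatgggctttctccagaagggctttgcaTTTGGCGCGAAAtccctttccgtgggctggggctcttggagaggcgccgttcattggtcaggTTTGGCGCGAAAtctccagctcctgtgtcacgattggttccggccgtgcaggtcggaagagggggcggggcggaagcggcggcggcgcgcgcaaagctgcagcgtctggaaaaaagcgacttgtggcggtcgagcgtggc
MCM7: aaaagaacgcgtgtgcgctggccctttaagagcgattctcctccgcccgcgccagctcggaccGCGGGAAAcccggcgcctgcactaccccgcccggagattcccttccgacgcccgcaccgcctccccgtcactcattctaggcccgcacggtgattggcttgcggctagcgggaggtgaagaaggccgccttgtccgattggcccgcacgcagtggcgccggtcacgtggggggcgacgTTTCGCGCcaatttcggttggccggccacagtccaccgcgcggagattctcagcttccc

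In POLE the match runs from base -18 to base -11 relative to the start of the gene, and in GINS2 from -31 to -24. MCM6 holds the same stretch of overlapping matches at 2 places, -152 to -141 and -90 to -79. The matches of MCM7 lie at -187 to -180 and at -9 to -2. A match is a description of the letters and was not tied to binding of any factor. Among the 36 genes, the 16 genes with a match had a median log2 ratio of 0.47 (0.09 to 0.97) and the 20 without one a median of 0.40 (0.09 to 0.74). Outside the list, the 514 protein-coding genes with a match had a median of 0.17, and those without one a median of 0.09.

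**Figure D2:**
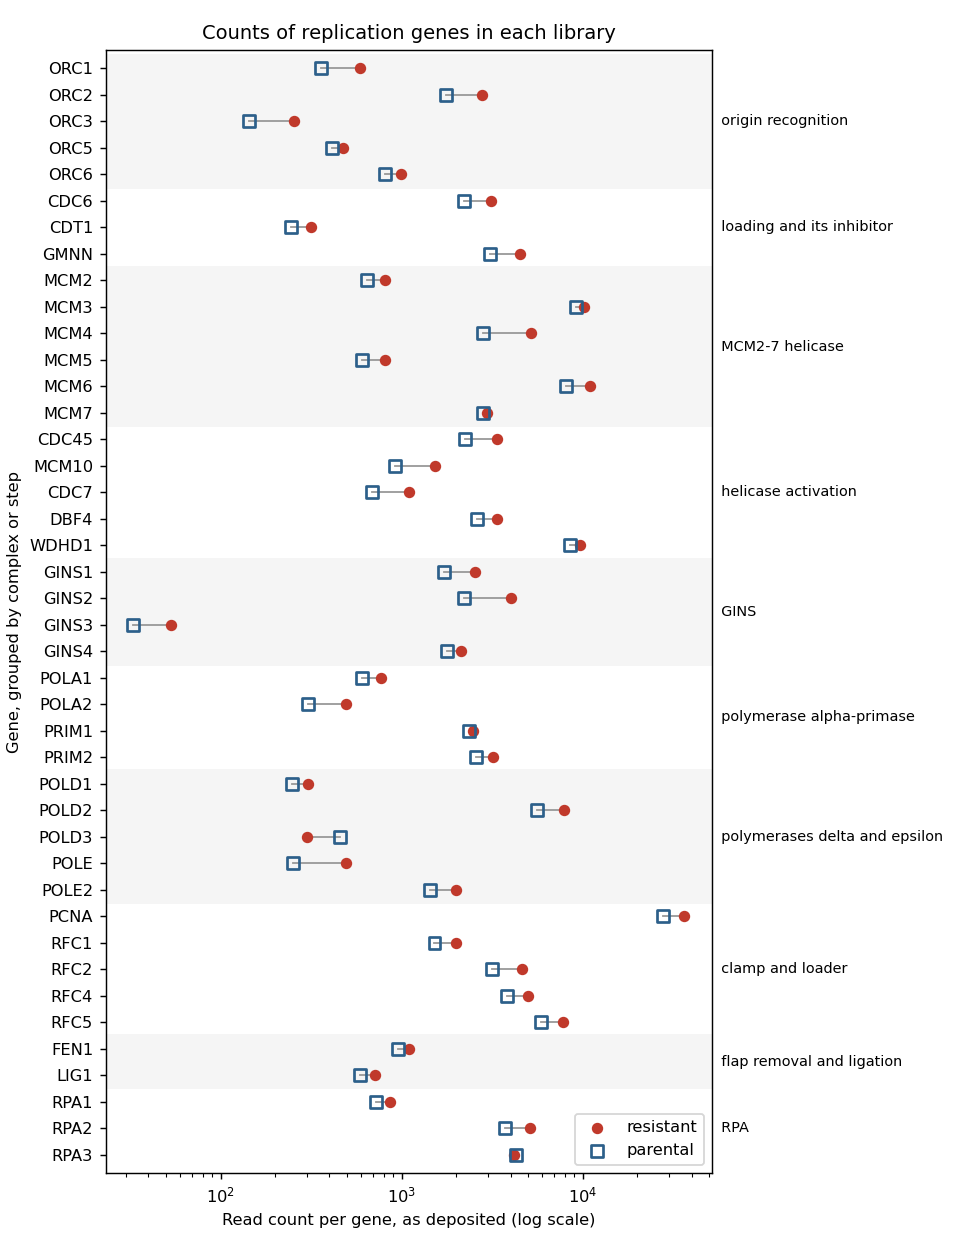
Deposited read counts (log axis) of the 42 genes in the resistant library (circles) and the parental library (squares), grouped by complex. Counts span from 53 in the resistant and 33 in the parental library for GINS3 to 36511 in the resistant and 27769 in the parental library for PCNA, and the circle lies right of the square for all genes except POLD3 and RPA3.

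The origin recognition complex marks the sites where helicases are loaded, and 3 of its 5 listed subunits were higher in resistant cells by 1.5-fold or more, beside 16.8% of all genes (median log2 ratio 0.68). ORC1, the ATPase subunit that is degraded in S phase, had 591 counts in resistant cells and 361 in parental cells (FPKM 5.96 in resistant, 3.49 in parental cells), 1.65-fold higher with a counting interval of 1.44 to 1.88. ORC2, a core subunit, had 2798 counts in resistant cells and 1754 in parental cells, and was 1.61-fold higher. ORC3, the partner of ORC2 in the core, had 256 counts in resistant cells and 144 in parental cells, 1.79-fold higher with a wider interval of 1.45 to 2.21. These 3 stood apart from the remaining pair. ORC5 had 477 counts in resistant cells and 415 in parental cells, 1.16-fold with an interval that just excluded 1, and ORC6 996 counts in resistant and 806 in parental cells, 1.24-fold. The order of the subunits by FPKM was the same in both libraries, ORC2 first (57.9 in the resistant and 34.8 in the parental library) and ORC1 last. On counts per kilobase of GENCODE exons ORC2 was again first, but ORC1 stood above ORC5 and ORC3 in both libraries and ORC3 was last. ORC4, which is outside the list, was close to ORC2, with 2758 counts in resistant cells and 1725 in parental cells, a log2 ratio of 0.69.

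The loading factors and their inhibitor were higher together, by 1.30-fold to 1.48-fold. CDC6, the ATPase that joins the origin recognition complex to load the ring, had 3124 counts in resistant cells and 2213 in parental cells, 1.42-fold higher. CDT1, which delivers the MCM2-7 ring, had 315 counts in resistant cells and 244 in parental cells, 1.30-fold higher. GMNN, geminin, which binds CDT1 and blocks loading after S phase begins, had 4502 counts in resistant cells and 3067 in parental cells, 1.48-fold higher. The log2 ratio of the inhibitor, 0.56, thus exceeded that of CDT1, 0.38, but the counting interval of CDT1, 1.10 to 1.54 as a fold, contains the GMNN value.

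The 6 subunits of the MCM2-7 helicase all stood above 0, unevenly, with a median log2 ratio of 0.39. MCM4 was highest, with 5217 counts in resistant cells and 2836 in parental cells (FPKM 123 in resistant, 64.2 in parental cells), 1.85-fold with an interval of 1.77 to 1.94. MCM6 had 10991 counts in resistant cells and 8070 in parental cells, 1.37-fold, and MCM5 815 counts in resistant and 606 in parental cells, 1.35-fold. MCM2 had 813 counts in resistant cells and 641 in parental cells, 1.28-fold. MCM3 and MCM7 were the least different pair. MCM3 had 10183 counts in resistant cells and 9199 in parental cells, 1.11-fold, and MCM7 2968 counts in resistant and 2812 in parental cells, 1.06-fold with an interval up to 1.12. The interval of MCM4 did not overlap that of any other subunit of the ring. Since the subunits enter the ring in equal numbers, their levels per length were also set side by side. By FPKM, MCM4 led in resistant cells, while in parental cells it stood behind MCM3 (116 in resistant, 101 in parental cells) and MCM7 (77.8 in resistant, 70.7 in parental cells). On counts per kilobase of GENCODE exons, MCM3 and MCM6 led in both libraries and MCM4 passed MCM7 in resistant cells, so the order between genes depends on the length used. MCM2 and MCM5 were the lowest pair on both scales in both libraries.

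**Figure D3:**
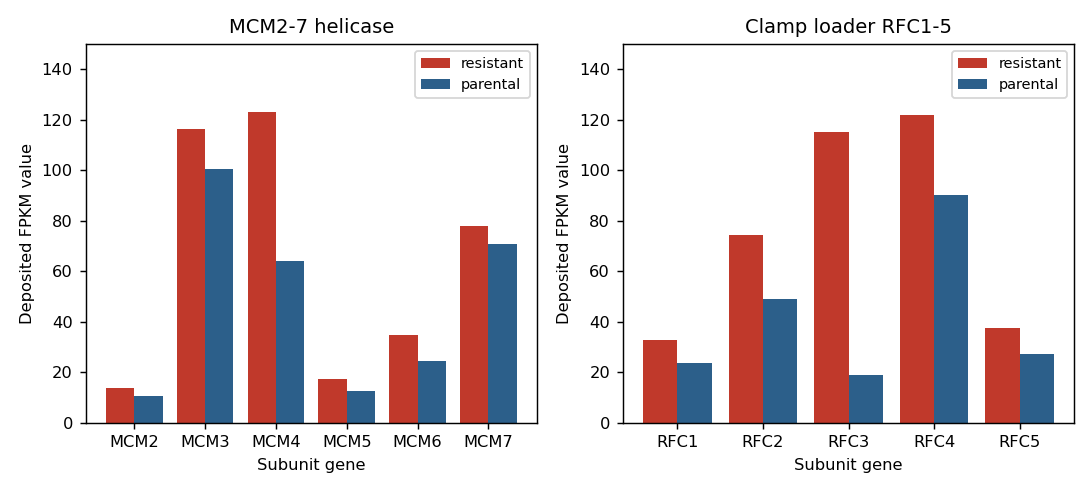
Deposited FPKM values (vertical axis, from 0) of the MCM2-7 subunits (left) and of the clamp loader subunits (right) in the resistant library (left bar of each pair) and the parental library (right bar). MCM4 stands at 123 in the resistant and 64.2 in the parental library, and RFC3, which is outside the list, at 115 in the resistant and 18.8 in the parental library.

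The factors that turn the loaded ring into an active helicase were higher by 1.14-fold to 1.67-fold, with 3 of 5 at 1.5-fold or more, again beside 16.8% of all genes. CDC45, a component of the CMG helicase, had 3362 counts in resistant cells and 2254 in parental cells, and its log2 ratio of 0.59 lay just past the 1.5-fold mark. MCM10, which is needed for the helicase to start unwinding, had 1531 counts in resistant cells and 925 in parental cells, 1.67-fold. CDC7, the catalytic subunit of the kinase that phosphorylates the ring, had 1106 counts in resistant cells and 689 in parental cells, 1.62-fold. The regulatory subunits of this kinase did not share its ratio. DBF4 had 3348 counts in resistant cells and 2623 in parental cells, 1.28-fold, and its interval, 1.22 to 1.35, did not overlap that of CDC7, 1.47 to 1.78. DBF4 shares exonic bases with SLC25A40 on the other strand, and a pseudogene, DBF4P1, had 208 counts in resistant cells and 135 in parental cells. The alternative subunit DBF4B, outside the list, was lower, with 257 counts in resistant cells and 362 in parental cells, a log2 ratio of -0.48. WDHD1, the human AND-1 protein that ties polymerase alpha to the helicase, had 9674 counts in resistant cells and 8553 in parental cells, 1.14-fold.

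GINS, the tetramer that completes the CMG helicase, had a median log2 ratio of 0.62. GINS2 had 4040 counts in resistant cells and 2203 in parental cells (FPKM 76.0 in resistant, 39.7 in parental cells), 1.85-fold with an interval of 1.75 to 1.95. GINS1 had 2537 counts in resistant cells and 1725 in parental cells, 1.48-fold, and GINS4 2118 counts in resistant and 1773 in parental cells, a log2 ratio of 0.27. GINS3 was the lowest of the 42 genes by FPKM (1.09 in resistant, 0.652 in parental cells), with 53 counts in resistant cells and 33 in parental cells, 1.62-fold, and so few counts gave it the widest interval of the 42 genes, 1.03 to 2.58. The order by FPKM was GINS2, GINS1, GINS4 and GINS3 in both libraries, with GINS2 69.5 times GINS3 in the resistant library and 60.9 times in the parental library. This order held on counts per kilobase of GENCODE exons too.

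Polymerase alpha-primase makes the short RNA-DNA primers that start each strand. Its 4 subunits spanned log2 ratios from 0.09 to 0.70. POLA2, the regulatory polymerase subunit, had 496 counts in resistant cells and 306 in parental cells, 1.63-fold with an interval of 1.41 to 1.89. POLA1, the catalytic subunit, had 772 counts in resistant cells and 603 in parental cells, 1.29-fold. PRIM2, the large primase subunit, had 3186 counts in resistant cells and 2577 in parental cells, 1.24-fold, and PRIM1, the catalytic primase subunit, 2492 counts in resistant and 2350 in parental cells, 1.07-fold with an interval up to 1.13. PRIM1 shares 33 exonic bases on the same strand with NACA, which had 19619 counts in resistant cells and 26338 in parental cells, so strand could not separate reads from those bases. The interval of PRIM1 did not overlap that of any other subunit of this complex, while POLA1 overlapped both POLA2 and PRIM2.

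The leading-strand and lagging-strand polymerases held both ends of the range. POLE, the catalytic subunit of polymerase epsilon, had 493 counts in resistant cells and 253 in parental cells (FPKM 2.61 in resistant, 1.28 in parental cells), 1.96-fold with an interval of 1.68 to 2.29. POLE2, its second subunit, had 1996 counts in resistant cells and 1436 in parental cells, 1.40-fold. The remaining epsilon subunits, outside the list, were on the same side, POLE3 at a log2 ratio of 0.39 and POLE4 at 0.54. For polymerase delta, POLD1, the catalytic subunit, had 304 counts in resistant cells and 248 in parental cells, 1.23-fold with an interval of 1.04 to 1.47, and POLD2, the second subunit, 7853 counts in resistant and 5626 in parental cells, 1.41-fold. POLD4, outside the list, had a log2 ratio of 0.40. POLD3, the subunit that binds PCNA and that is also known from break-induced replication, was the exception. It had 302 counts in resistant cells and 458 in parental cells (FPKM 6.29 in resistant, 9.15 in parental cells), a log2 ratio of -0.59, and its level in the resistant library was 0.664 of the parental one, with an interval of 0.572 to 0.769. POLD1 and POLD3 accordingly changed places in the order by FPKM, with POLD1 at 6.35 in the resistant and 4.96 in the parental library. POLD3 shares 123 exonic bases, 2.23% of its own, on the same strand with the non-coding gene AP001372.2. This gene was lower too, with 1076 counts in resistant cells and 1816 in parental cells. Reads from the shared bases may not be separable.

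The sliding clamp and its loader formed the most even of the groups with 5 or more genes, with 5 log2 ratios between 0.38 and 0.56. PCNA, the clamp that tethers the polymerases, had the highest FPKM value of the 42 genes, with 36511 counts in resistant cells and 27769 in parental cells (FPKM 319 in resistant, 233 in parental cells), 1.32-fold with an interval of 1.30 to 1.34. RFC1, the large loader subunit, had 2011 counts in resistant cells and 1521 in parental cells, 1.33-fold. RFC2, a small loader subunit, had 4605 counts in resistant cells and 3154 in parental cells, 1.47-fold. The small subunits RFC4 and RFC5 were close to these values, RFC4 with 4976 counts in resistant cells and 3842 in parental cells, 1.30-fold, and RFC5 with 7807 counts in resistant and 5917 in parental cells, 1.33-fold. RFC3, the fifth loader subunit and outside the list, was not. It had 23511 counts in resistant cells and 4018 in parental cells, 5.89-fold higher, and lies on chromosome 13, where its 20 neighbouring coding genes had a median log2 ratio of 2.25. By FPKM, RFC3 was 2.05 times the median of the other loader subunits in the resistant library and 0.494 times in the parental library. On counts per kilobase of GENCODE exons these figures were 4.37 in the resistant and 1.03 in the parental library. RFC3 was the lowest of the 5 by FPKM in parental cells. Its level relative to its partners was higher in resistant cells on both scales, but each scale uses the same gene lengths for both libraries. That shared direction follows from the counts and is not added support.

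Processing of Okazaki fragments and protection of single strands showed the smallest median log2 ratios, 0.25 for FEN1 and LIG1 and 0.27 for RPA. FEN1, the flap endonuclease, had 1104 counts in resistant cells and 953 in parental cells, 1.17-fold, and LIG1, the ligase that joins the fragments, 712 counts in resistant and 592 in parental cells, 1.21-fold. RPA1, the large subunit of the single-strand binder, had 869 counts in resistant cells and 723 in parental cells, 1.21-fold. RPA2, the subunit phosphorylated in the checkpoint response, had 5107 counts in resistant cells and 3713 in parental cells, 1.38-fold. RPA3 had 4165 counts in resistant cells and 4272 in parental cells, 0.981 of the parental level with an interval of 0.94 to 1.02, the only interval of the 42 that contained 1. It shares exonic bases with UMAD1 on the other strand, which had 141 counts in resistant cells and 278 in parental cells. The interval of RPA3 lay below those of RPA1 and RPA2, which overlapped each other.

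Position on the chromosome was compared for all 42 genes. For each gene the 10 measured protein-coding genes on either side were taken, 20 in all, and 38 of the 42 genes had a ratio above their own neighbours' median, against 50.1% of 12143 coding genes treated in the same way. The neighbour medians ran from -0.60 to 0.89. POLE was the gene with the highest neighbours, at 0.89, and 17 of its 20 neighbours were at least 1.5-fold higher, so its ratio of 0.97 was close to that of its surroundings. MCM7 and PRIM1 were the reverse case, MCM7 at 0.09 among neighbours at -0.59 and PRIM1 at 0.09 among neighbours at -0.60. RFC4 (0.38, neighbours -0.57), RFC5 (0.41, neighbours -0.44) and GINS2 (0.88, neighbours -0.26) likewise lay among lower neighbours. The 4 genes below their neighbours were POLD3 (-0.59, neighbours -0.13), CDT1 (0.38, neighbours 0.55), PRIM2 (0.32, neighbours 0.45) and FEN1 (0.22, neighbours 0.24). Over the 42 genes, Pearson's r between gene and neighbour median was 0.40 and Spearman's rho 0.33, a description over points that share the same libraries. Whether DNA copy number differs at these places was not tested.

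**Figure D4:**
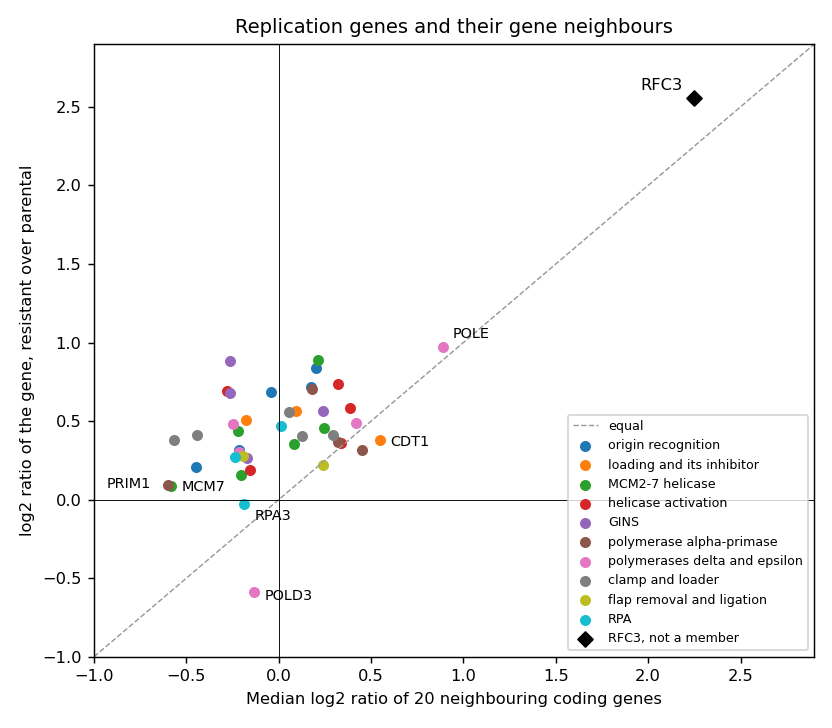
The log2 ratio of each of the 42 genes (vertical axis) against the median log2 ratio of its 20 neighbouring coding genes (horizontal axis), coloured by complex, with the dashed line marking equal values and a diamond for RFC3. Above the line lie 38 of the 42 genes, and POLE (0.97 beside 0.89) and RFC3 (2.56 beside 2.25) stand near it at the right.

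Length and level of the genes were checked because ratios in these libraries varied with both. The replication genes had a relative length, the count over the FPKM value, of 0.642 times the all-gene median, and median FPKM values of 26.8 in the resistant and 19.9 in the parental library, against 4.37 in the resistant and 4.38 in the parental library for all genes. With the length trend removed the median log2 ratio of the 42 genes was 0.45, beside 0.14 for all genes. With the level trend removed it was 0.43, beside 0.10. Over the 3776 genes of shortest length on this measure the median was 0.18, and the 16 replication genes among them had a median of 0.37. Over the next 3775 genes by length it was 0.20, beside 0.45 for 14 replication genes. The following 3775 had 0.07, beside 0.47 for 9. Over the 3776 longest it was -0.28, beside 0.46 for 3, so the gap was widest where replication genes were fewest. Over the 3776 genes of highest expression level the median was 0.19, beside 0.43 for the 24 replication genes among them. The length implied by count over FPKM departed from GENCODE exonic length. It was 0.163 times that length for CDC6, 0.343 times for POLE, 2.33 times for MCM6 and 2.35 times for PCNA. The genes longest on this measure are therefore not always those with the most exonic bases. POLD1 shares 426 exonic bases, 8.64% of its own, on the same strand with the coding gene AC020909.1, which had 158 counts in resistant cells and 140 in parental cells. Exonic bases are also shared with measured coding genes by MCM2 (TPRA1), MCM7 (AP4M1), RFC4 (EIF4A2), RFC5 (WSB2), FEN1 (TMEM258 and FADS2) and RPA1 (SMYD4), and 7 bases by GINS2, whose counts are uncertain to that extent.

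Other parts of the S phase programme were read in the same way, from lists written by function. For each count of genes above 0, the share of all genes above 0, 51.2%, is the background. Chromatin assembly at forks was on the same side without exception, with 8 of 8 measured genes above 0 and a median log2 ratio of 0.49, led by DNMT1, the maintenance DNA methyltransferase, at 0.62, CHAF1A, a subunit of the histone chaperone CAF-1, at 0.58 and SLBP, which binds histone messenger RNA, at 0.57. Origin firing and replisome accessories were split. They had the same median of 0.49, with 14 of 20 genes above 0, and 9 genes reached 1.5-fold upwards, where 16.8% of all genes did, and 2 downwards, where 21.2% did. TIPIN, a fork protection factor, had 1080 counts in resistant cells and 398 in parental cells, 2.73-fold higher, while its partner TIMELESS had 1874 counts in resistant and 2644 in parental cells, a log2 ratio of -0.49. PIF1, a helicase, stood at 1.22 with 124 counts in resistant cells and 53 in parental cells, and RNASEH2A, the catalytic subunit of ribonuclease H2, at 0.89. Subunits of the alternative clamp loader with RFC2 to RFC5 differed in direction, DSCC1 at 0.82 and CHTF18 at 0.85 beside CHTF8 at -0.31.

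Nucleotide supply had a median of 0.32, with 8 of 13 genes above 0. SAMHD1, which breaks down deoxynucleotides, stood at 0.68 and RRM1, the large subunit of ribonucleotide reductase, at 0.62. The small subunit RRM2 was lower, with 5099 counts in resistant cells and 7023 in parental cells, a log2 ratio of -0.45. The regulators of G1/S entry had no common side. The list of drivers holds the whole E2F family, repressors included, so its values are not those of activators alone. It had a median of 0.07 with 11 of 21 genes above 0. SKP2, a ubiquitin ligase subunit, stood at 0.93, E2F7, a repressor of the family, at -0.90 and TFDP2, an E2F partner, at -0.89. E2F1 had 1178 counts in resistant cells and 1127 in parental cells, a log2 ratio of 0.07. Brakes had a median of -0.22 with 3 of 8 genes above 0. CDKN1A, the CDK inhibitor p21, had 852 counts in resistant cells and 420 in parental cells, 2.04-fold higher, CDKN2D stood at 0.88, and CDKN1C had 10 counts in resistant cells and 64 in parental cells.

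Mitotic genes, the usual companion set of a proliferation signature, had a median of 0.06, equal to that of all genes, with 6 of 12 above 0. CENPE, a kinetochore motor, stood at 0.69, KIF11, a spindle motor, at -0.40, and MKI67, the Ki-67 marker, had 654 counts in resistant cells and 896 in parental cells, a log2 ratio of -0.44. The list headed translesion polymerases is wider than its name and also holds POLB, POLL, POLQ and PRIMPOL. It had a median of -0.29 with 4 of 10 genes above 0. Of the added genes, POLB stood at -0.43, POLL at -0.38, POLQ at -0.39 and PRIMPOL at 0.46. POLK stood at 0.86, POLI at -0.60 and REV1 at -0.57. Mitochondrial DNA replication had a median of 0.35 with 4 of 7 genes above 0, led by POLG2, an accessory polymerase subunit, at 0.78, the helicase TWNK at 0.55 and the single-strand binder SSBP1 at 0.52. With 1 library a group, the difference between the 42 replication genes and any of these lists was not tested.

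**Figure D5:**
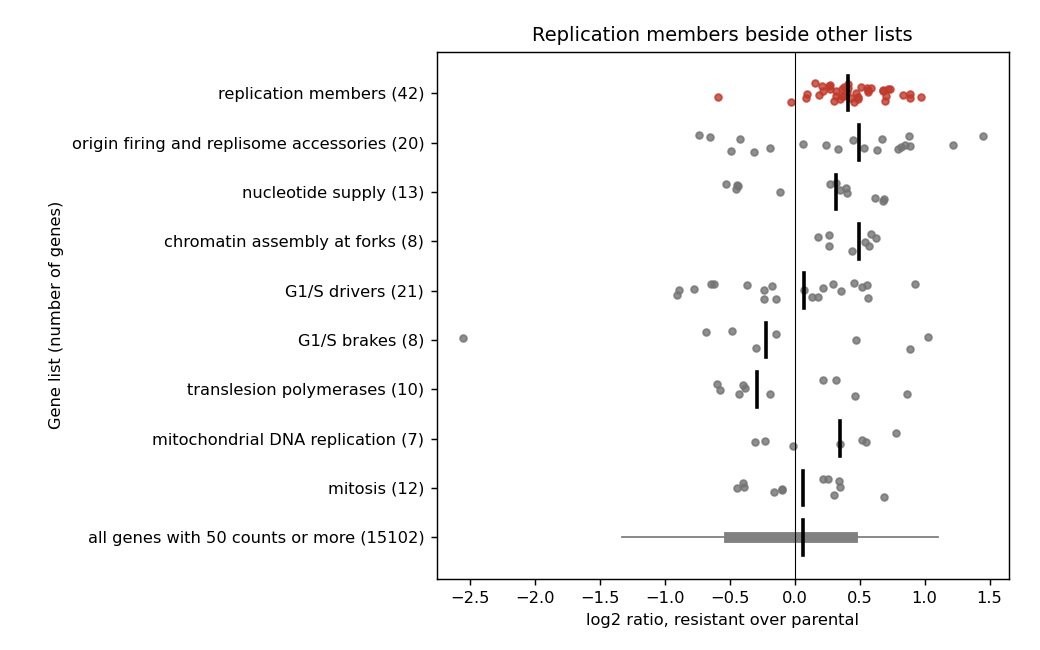
The log2 ratio of resistant over parental (horizontal axis) of each gene in the replication list and in 8 other functional lists, with black ticks at the medians; for all genes the thick bar spans percentiles 25 to 75 and the thin line percentiles 5 to 95. The replication genes have a median of 0.41, the mitotic genes 0.06 and all genes 0.06. The list headed translesion polymerases, which is wider than its name, has a median of -0.29.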

How the data were processed

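Per the labels' protocols, Trizol was used to extract total RNA, and ScriptSeq to make strand-specific libraries. The deposited table gives, per the file headers, a read count and an FPKM value for each Ensembl gene in each library. The counts as deposited are whole numbers without normalization, and the deposited FPKM values used the same gene lengths for both libraries, as judged from the values themselves. Per the submitters' processing notes, RSEM 1.2.3 and hg19 were used, with no role stated. Which aligner and annotation were used, whether counts are rounded estimates and whether strand was used in counting is not given in the sources used here, so genes that overlap another gene are uncertain.

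Symbols came from a gene name table (29536 identifiers matched) and GENCODE release 29 (29719 matched). GENCODE describes another build, so it served only for gene type, order, overlap and exonic length. Promoters came from RefSeq on GRCh38.p14. Those printed were chosen after their values were seen. CDKN2A, CDKN2B, UHRF1, COL1A2, PECAM1 and CDH5 were not analysed here.

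Counts were scaled with TMM factors (edgeR 4.0.16, R 4.3.3). Log2 ratios, resistant over parental, had 1 count added as prior, and genes needed at least 50 counts in the higher library. Folds and their exact conditional (Clopper-Pearson) 95% intervals were taken from the counts over the TMM-scaled totals. Neither library has a replicate, so the lines were not tested against each other. Trends with length and level were removed by lowess with a fraction of 0.3. Alternatives covered scaling (DESeq2 1.42.0 size factors over genes at the count minimum, upper quartile, totals), prior counts of 0.5 and 5, minimums of 10 and 200 counts, the FPKM ratio, the trends, means, a required interval, protein-coding genes alone as background, and a fold size of 25% above equal. Levels per kilobase of GENCODE exons were added after seeing the data. The calculations were tested on simulated data.

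The 42 genes and all other lists were chosen with earlier results of these data known. Named are every one of the 42 genes, BRCA2, the remaining subunits of the same complexes, and up to 3 genes with the largest absolute log2 ratio from each further list. From the nucleotide supply list, 1 gene so chosen is not reported here. TIMELESS, CHTF18, CHTF8, DSCC1, RRM2, E2F1, POLB, POLL, POLQ, PRIMPOL, the overlapping genes and the pseudogene were chosen after their values were seen. Python 3.11.15, numpy 2.4.6, pandas 2.3.3, scipy 1.17.1, statsmodels 0.14.6 and matplotlib 3.10.9 were used.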

Additional observations from a re-analysis of the deposited data

How the results depend on the processing

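The median log2 ratio of the 42 replication genes stayed between 0.35 (median of ratios scaling) and 0.48 (upper quartile scaling) under the alternatives run, and exceeded the all-gene median by 0.30 to 0.45. Counts near a threshold moved. The number at least 1.5-fold lower was 0 under upper quartile scaling, a prior of 5 counts, the FPKM ratio and removal of the level trend, since POLD3 lies next to that mark. In these settings 17.0% to 20.8% of all genes were lower by that fold. The number at least 2-fold higher was 1, POLE, under upper quartile scaling, the FPKM ratio and removal of either the length or the level trend. Of all genes, 6.61% to 7.85% were higher by 2-fold in these settings. With a fold size of 25% above equal in place of 1.5-fold, 28 genes were higher, beside 34.4% of all genes. Single genes gave 419 values under the alternatives, of which 382 moved by no more than their own counting interval and 37 by more. For a complex, the interval used was that of its middle gene, or the mean of those of its 2 middle genes. By that measure 105 of 110 medians of complexes moved by no more than the interval and 5 by more. For GINS the interval included the wide one of GINS3, so its median could move far and still count as unmoved. GINS3 has no value at the minimum of 200 counts, because its counts lie below that minimum in both libraries. The cause of the differences between the 2 libraries was not tested. Depth limits GINS3 most, with 53 counts in resistant cells and 33 in parental cells.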
